A study of Homo sapiens with 4 samples.

Results

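The genes described here are those of TRAIL and FAS signalling to caspase-8, 10 genes of the 56865 whose reads were summed. They were taken by name: the ligand TNFSF10, the receptors TNFRSF10A, TNFRSF10B, TNFRSF10C, TNFRSF10D and FAS, and the complex genes FADD, CASP8, CFLAR and RIPK1. The RNA came from MDA-MB-468 at passage 12, an established human breast cancer line that the labels class as triple negative, and was sequenced after poly(A) selection. Duplicate 10-cm dishes received 5 µM MS1943 for 3 days (n = 2) or DMSO, the vehicle (n = 2; the labels give no separate time for it). By the series title MS1943 degrades EZH2, the Polycomb enzyme that methylates histone H3, and the stated purpose was to compare gene expression between these treatments. All 4 libraries came from 1 cell line, and nothing in the labels says that the dishes came from separate experiments, so the p-values take in only how far these 4 samples spread, and that spread can be technical.

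TRAIL and FAS ligand are trimeric proteins that cluster receptors carrying a cytoplasmic death domain. Clustered receptors bind the adaptor FADD, which recruits procaspase-8 through death effector domains, and caspase-8 activated there cleaves the executioner caspases and BID. The decoy receptors bind TRAIL without passing on the death signal, c-FLIP (the product of CFLAR) competes with or pairs with caspase-8 in the complex, and RIPK1 is a kinase and scaffold that serves both survival signalling and cell death.

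The libraries held between 47564377 and 71378893 estimated reads, and the libraries of each group differed by more than sampling noise, so none was a copy. The epithelial markers EPCAM, KRT8, KRT18, KRT19, CDH1 and EGFR were all abundant. Their levels in TPM (a Salmon abundance that is scaled to transcript length and library) summed to 6639 and 6706 with DMSO and 5505 and 5462 with MS1943. KRT8, KRT19 and CDH1 were lower with MS1943 (log2 fold changes of -0.66, -0.27 and -0.24) and EGFR was higher (0.58). EPCAM and KRT18 did not pass. Of the leukocyte markers PTPRC had 2 to 10 reads, CD3E 0 to 2 and LYZ 1 to 5 per library. CD14 had 3997 to 11049 reads and was lower with MS1943 (log2 fold change -0.84). ITGAM was also lower (-1.94), from 14 and 21 reads with DMSO to 3 and 4 with MS1943. Of the 6 fibroblast markers COL1A1 was at 10.2 to 17.8 TPM, and both that were tested were higher with MS1943 (COL1A1 0.51, PDGFRB 2.13 on the log2 scale, the latter from 2 and 6 reads to 20 and 9). The endothelial markers summed to 2.16 to 2.32 TPM with DMSO and 0.757 to 0.911 TPM with MS1943, and all 4 that were tested were lower, KDR by a log2 fold change of -1.28. The part of these shifts in the results was not tested. Of the receptors behind the triple negative label, PGR was at 0 reads in all 4 libraries. ESR1 had 209 to 321 reads and was higher with MS1943 (log2 fold change 0.63), and ERBB2 had 2895 to 6120 reads and was lower (-0.33). As the samples are bulk RNA, fewer cells with a transcript and less of it per cell cannot be told apart.

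Of the 10 genes, all of which passed the filter on low counts, 7 were higher and 2 lower with MS1943 at an adjusted p under 0.05 in edgeR's quasi-likelihood test. Over all 19358 tested genes, 5799 (30.0%) were higher and 5689 (29.4%) were lower, and 59.3% were called in either direction, so a call in itself does not set a gene apart in this data set. The median log2 fold change (MS1943 over DMSO) of the 10 genes was 0.52, and that of all tested genes was -0.01. The rises were those of both TRAIL death receptors, FAS, FADD, CASP8, CFLAR and RIPK1. The falls were those of TRAIL itself and of the decoy receptor TNFRSF10D, and the other decoy receptor, TNFRSF10C, was near the detection floor. With scaling by total reads, which moved the median of all genes to -0.12, 4 of the 10 genes were higher and 2 lower, beside 4619 higher and 6973 lower over all tested genes. With limma on log2(TPM + 1) 4 were higher and 1 lower, beside 3530 and 5392 over all genes.

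**Figure D1:**
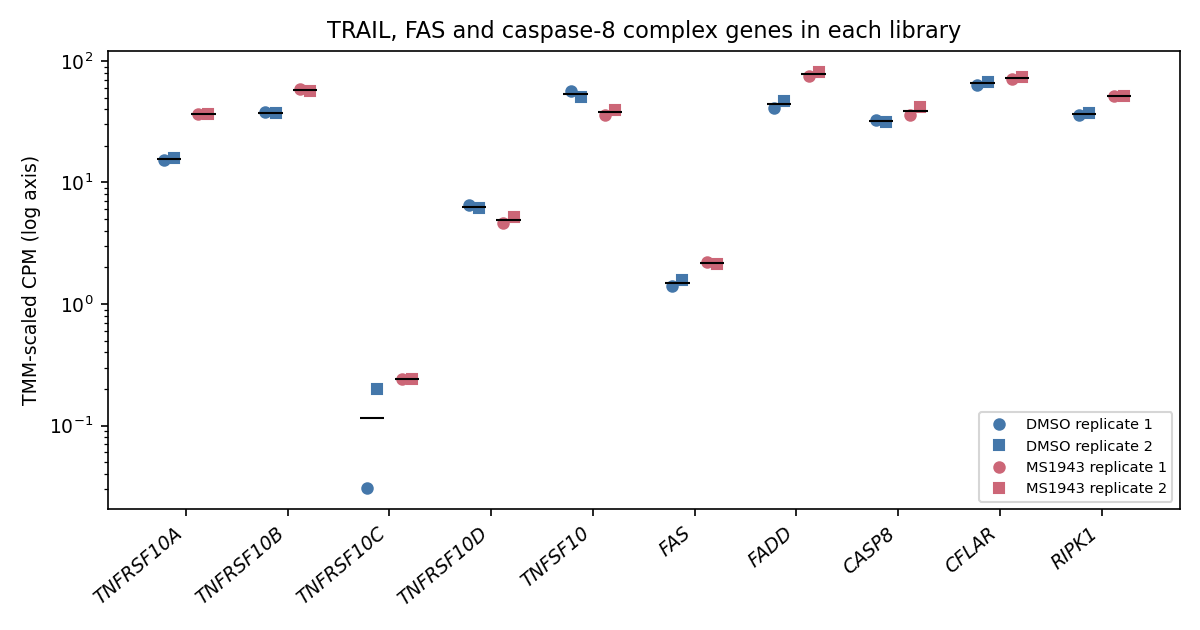
TMM-scaled CPM (reads scaled to library size, log axis) of each of the 10 genes in the 4 libraries; blue marks are DMSO, red marks MS1943, and black lines are group means. TNFRSF10A and FADD sit clearly higher with MS1943, TNFSF10 and TNFRSF10D lower, and CFLAR differs little.

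TNFSF10 encodes TRAIL, the ligand (ENSG00000121858, hg38 chromosome 3, 172505508 to 172523507, minus strand). It had the highest mean level of the 10 genes with DMSO, 54.2 ± 0.04 TPM (SD, n = 2). Its scaled count was 56.3 and 50.9 CPM (reads scaled to library size, with TMM factors) in the DMSO libraries and 36.0 and 39.5 CPM in the MS1943 libraries. Both treated libraries were below both control libraries. TNFSF10 fell by 0.51 on the log2 scale (SE 0.07, adjusted p = 1.7e-06 in edgeR), 1.42-fold, and the fall passed the threshold in each of the 12 alternative analyses.

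At the transcript level TNFSF10-201, which encodes the full 281-residue protein, fell. It had 3107 and 3073 reads with DMSO and 2039 and 1448 with MS1943 (log2 fold change -0.57, SE 0.10, adjusted p = 0.037 over all tested transcripts in edgeR). TNFSF10-202 encodes 101 residues and had 485 and 554 reads with DMSO and 145 and 290 with MS1943. Its share of the gene's reads was 13.1% and 14.5% with DMSO but 6.05% and 16.0% with MS1943, so the treated libraries differed from each other by more than the groups did. The transcripts part after 270 coding bases, and the sequences across that point are shown because the full and the short product differ from there on. Lower case marks the last shared bases and capitals the first bases of each transcript alone, from chr3:172511630-172511659 and chr3:172506890-172506919 on the minus strand (hg38).
TNFSF10-201: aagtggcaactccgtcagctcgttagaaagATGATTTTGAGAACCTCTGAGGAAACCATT
TNFSF10-202: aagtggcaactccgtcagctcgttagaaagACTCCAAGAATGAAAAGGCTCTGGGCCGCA

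The promoter table from RefSeq (GRCh38.p14; windows of 250 bases before to 50 after each start) held 6 of the 10 genes: CASP8, CFLAR, FADD, FAS, RIPK1 and TNFSF10. These 5 letter patterns were searched on both strands: GAAA, any 2 bases and GAAA for interferon regulatory factors; TGATGNAA for C/EBP-ATF factors; GGGCGG for the GC box; TGANTCA for AP-1; and GAA, any 2 bases, TTC, any 2 bases and GAA for the heat shock factor. They occur in 3.57%, 3.62%, 45.0%, 7.71% and 0.490% of the 35116 windows in the table. TNFSF10 had the interferon pattern alone. Its stretch upstream of the start is shown because TNFSF10 is the only ligand among the genes and fell while other genes of the pathway rose; the capitals mark the match, which lies on the other strand and begins 110 bases before the outermost start of the gene in GENCODE, where the printed stretch ends.
TNFSF10 chr3:172523508-172523680 minus strand: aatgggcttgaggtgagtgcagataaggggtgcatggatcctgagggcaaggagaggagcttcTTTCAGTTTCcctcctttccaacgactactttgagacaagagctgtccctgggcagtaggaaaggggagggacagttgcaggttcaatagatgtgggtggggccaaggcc
The interferon pattern also stood in 2 of the 3 windows of RIPK1, which rose, and in 1 of 3 of CASP8, so it was found in genes of both directions. Those 2 RIPK1 windows overlap (chromosome 6, 3068128 to 3068427 and 3068244 to 3068543) and may hold the same match. GC boxes stood in windows of CASP8, CFLAR, FADD, FAS and RIPK1. The AP-1 pattern stood in windows of CASP8 (2 of 3), CFLAR (1 of 4), FADD (1 of 1) and FAS (1 of 3), and the C/EBP-ATF and heat shock patterns in none of the windows of the 6 genes. A match is a description of the letters and not evidence of binding.

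TNFRSF10A encodes the death receptor DR4 (ENSG00000104689, chromosome 8, 23190452 to 23225126, minus strand), and had the largest change of the 10 genes. Its scaled count was 15.4 and 16.0 CPM with DMSO and 36.8 and 36.6 CPM with MS1943. The treated libraries lay far above the controls and close to each other. It rose 2.34-fold (log2 fold change 1.22, SE 0.07, adjusted p = 6.5e-12 in edgeR), and 6.08% of all tested genes had a larger log2 fold change. On the TPM scale the treated libraries were less alike, at 26.1 and 20.6 TPM beside 11.9 and 11.8 TPM with DMSO. Beside it stands the spread of TNFRSF10A-204, a 310-residue form with 153 and 129 reads with DMSO and 333 and 52 with MS1943. TNFRSF10A-201, which encodes the 468-residue receptor, had 864 and 1071 reads with DMSO and 2105 and 1623 with MS1943 and rose by 1.22 on the log2 scale (SE 0.10, adjusted p = 0.0080 in edgeR). The 2 non-coding genes AC100861.1 and TNFRSF10A-AS1 on the other strand share exonic bases with it, and the library kit does not mark strand. With their reads summed into it, the log2 fold change of TNFRSF10A was 0.93 and still passed.

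TNFRSF10B encodes DR5 (ENSG00000120889, chromosome 8, 23020133 to 23069179, minus strand). It stood at 37.8 and 37.3 CPM with DMSO and at 58.6 and 56.8 CPM with MS1943. Replicates were within a few percent of each other, and both treated libraries were above both controls. It rose 1.54-fold (log2 fold change 0.62, SE 0.06, adjusted p = 1.6e-08 in edgeR) and passed in each of the 12 alternatives. TNFRSF10B-201 (440 residues) had 1942 and 2209 reads with DMSO and 3021 and 1980 with MS1943 and held 76.2% to 79.0% of the gene's reads in every library. TNFRSF10B-202 (411 residues) held 14.6% to 17.3%. The first of these passed on its own (log2 fold change 0.52, SE 0.07, adjusted p = 0.021 in edgeR), the second did not (0.61, SE 0.15, adjusted p = 0.073), and the test of one transcript against the others of its gene called neither.

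The ratio of TNFRSF10B to TNFRSF10A, each in TPM, was 1.61 and 1.63 with DMSO and 1.04 and 1.34 with MS1943. DR5 transcripts were more abundant than DR4 transcripts in every library, by less with MS1943. The exact permutation test of this ratio gave p = 0.33 (two-sided, n = 2 per group), the smallest value that 2 against 2 libraries allow.

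FAS encodes the receptor of FAS ligand (ENSG00000026103, chromosome 10, 88990582 to 89015785, plus strand) and was expressed at a low level. It had 93 and 119 reads with DMSO and 148 and 97 with MS1943, which is 1.41, 1.59, 2.23 and 2.12 CPM. The scaled values of the groups did not overlap. FAS rose 1.45-fold (log2 fold change 0.54, SE 0.18, adjusted p = 0.016 in edgeR), but the call was lost in 7 of 12 alternatives. Among them were leaving out DMSO replicate 1 (adjusted p = 0.076), leaving out MS1943 replicate 1 (0.089), DESeq2 (0.14) and limma on log2(TPM + 1) (0.42). Between 81.4% and 90.3% of its reads were in FAS-204, the 335-residue membrane receptor, with 77, 99, 120 and 88 reads. FAS-205, of 314 residues, had reads in the second library of each group alone, 18 with DMSO and 4 with MS1943. The ligand gene FASLG had 0 reads in all 4 libraries, where 3 reads stand for 0.040 to 0.066 CPM.

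TNFRSF10D encodes the decoy receptor DcR2 (ENSG00000173530, chromosome 8, 23135588 to 23164030, minus strand), whose death domain is truncated. Its scaled count was 6.47 and 6.21 CPM with DMSO and 4.68 and 5.20 CPM with MS1943. Both treated libraries were below both controls. TNFRSF10D fell by 0.36 on the log2 scale (SE 0.11, adjusted p = 0.010 in edgeR), 1.29-fold. The call was lost with DESeq2 (adjusted p = 0.091), with limma (0.070) and without MS1943 replicate 1 (0.091).

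TNFRSF10C encodes the membrane-anchored decoy receptor DcR1 (ENSG00000173535, chromosome 8, 23102590 to 23117437, plus strand). It had 2 and 15 reads with DMSO and 16 and 11 with MS1943. DMSO replicate 1 was under the floor of 3 reads and the other was close to the treated libraries. The difference did not pass (log2 fold change 1.0, SE 0.61, adjusted p = 0.17 in edgeR). It passed without DMSO replicate 2 (log2 fold change 2.90, adjusted p = 0.012), which leaves the library with 2 reads as the control. It also passed with the reads of a non-coding gene on its own strand added (0.64, adjusted p = 0.022), which had 49.4, 49.9, 73.9 and 45.1 reads.

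The summed TPM of the death receptors TNFRSF10A and TNFRSF10B was 11.3 and 10.5 times that of the decoy receptors with DMSO and 25.7 and 20.2 times with MS1943. The ratio was 2.10-fold higher with MS1943, and the groups did not overlap. The exact permutation test gave p = 0.33 (two-sided, n = 2 per group), again the smallest possible.

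The 4 TRAIL receptor genes lie side by side on chromosome 8, from 23020133 to 23225126. Within 200 kb on either side, 5 protein-coding genes were tested, of which 1 was higher and 2 were lower, with a median log2 fold change of -0.05. Over all tested genes 30.0% were higher and 29.4% lower, so these counts in themselves do not set the neighbours apart. LOXL2, a lysyl oxidase gene, rose by 1.58 on the log2 scale, R3HCC1 fell by 0.62 and RHOBTB2, which overlaps the end of TNFRSF10B, fell by 0.31. The 4 receptors and their neighbours did not move in 1 direction. These neighbours were named for their position.

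FADD encodes the adaptor that links death domain to death effector domain (ENSG00000168040, chromosome 11, 70203163 to 70207390, plus strand). For FADD the scaled counts were 41.1 and 46.9 CPM with DMSO and 75.6 and 81.7 CPM with MS1943. The treated libraries were well above the controls, and each group spread by a similar amount. FADD rose 1.78-fold (log2 fold change 0.83, SE 0.07, adjusted p = 1.9e-09 in edgeR) and passed in each of the 12 alternatives. In MS1943 cells it had the highest mean level of the 10 genes, 63.9 ± 3.64 TPM (SD, n = 2), and with DMSO its 39.3 ± 4.57 TPM overlapped that of CFLAR. An antisense gene that shares 1011 exonic bases with FADD had 258.5 and 7.2 reads with DMSO and 121.8 and 0 with MS1943, so the lower FADD value of each group went with more reads given to that gene. With these reads summed, the log2 fold change of FADD was 0.79.

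CASP8 encodes the initiator caspase (ENSG00000064012, chromosome 2, 201233443 to 201287711, plus strand). Its scaled count was 32.7 and 31.4 CPM with DMSO and 36.0 and 42.2 CPM with MS1943. The groups did not overlap, and the second treated library was the higher one. CASP8 rose 1.22-fold (log2 fold change 0.28, SE 0.07, adjusted p = 0.0021 in edgeR). Without MS1943 replicate 2 the log2 fold change was 0.16 (adjusted p = 0.094), and the call was also lost with scaling by total reads (0.072) and with limma (0.28).

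Full-length CASP8 products differ in an exon of 45 bases between the death effector domains and the protease part. It is shown, in capitals, because it separates the 2 sets of transcripts compared below; it lies at chr2:201272898-201272942 (hg38), with the 20 bases on each side in lower case.
CASP8-212: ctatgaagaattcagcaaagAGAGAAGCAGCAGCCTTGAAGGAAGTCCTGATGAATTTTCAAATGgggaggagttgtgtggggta
CASP8-203: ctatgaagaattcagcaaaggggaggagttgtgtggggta
Transcripts with the exon held 33.7% and 34.5% of the gene's reads with DMSO and 40.5% and 43.0% with MS1943. Transcripts without it held 44.7% and 42.8% with DMSO and 41.2% and 37.1% with MS1943, and the remainder could not be classed. The share with the exon was higher in both treated libraries than in both controls; this split was not tested. CASP8-205, which encodes 538 residues, had 603 and 655 reads with DMSO and 738 and 643 with MS1943 and was the largest transcript, at 27.9% and 32.1% of reads on average. CASP8-203, which encodes 464 residues, CASP8-207 and the non-coding CASP8-220 also held over 10% of reads, and none of the 4 passed. CASP8-207 is annotated with 464 residues too, but its coding sequence is incomplete.

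CASP8-201, singled out after its values were seen, encodes 395 residues and had 41 and 112 reads with DMSO and 0 in both MS1943 libraries. Against a floor of 3 reads per MS1943 library it was at least 19.6-fold lower than the DMSO mean. It was at least 11.7-fold lower than DMSO replicate 1 and at least 27.5-fold lower than DMSO replicate 2. These folds allow for counting error only, not for error in Salmon's sharing of reads between overlapping CASP8 transcripts. Of 45 transcripts set against the others of their gene, CASP8-201 was the one called (1.71% of all transcripts so tested were). It passed the filter on low counts through the DMSO libraries alone, so that call is a description and supports nothing. Its DMSO reads were at most 4.78% of the gene's.

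CASP8 products were also grouped by annotated length. Transcripts with at least 450 residues, which keep the protease, had 1579 and 1580 reads with DMSO and 1817 and 1384 with MS1943 and rose by 0.35 on the log2 scale (SE 0.08, adjusted p = 4.8e-04 in edgeR). The short group holds 2 transcripts, of 235 and 278 residues, with complete coding sequences of at least 200 but under 300 residues, and had 25 and 33 reads with DMSO and 51 and 68 with MS1943 and rose by 1.42 (SE 0.33, adjusted p = 0.0011). The short form was 1.17% to 3.51% of the gene's reads, and without MS1943 replicate 2 its log2 fold change was 0.88 (adjusted p = 0.059). The call was also lost once 2 further transcripts, of 258 and 209 residues but with incomplete coding sequences, were counted as short: reads were then 56, 81, 51 and 96 (log2 fold change 0.51, SE 0.33, adjusted p = 0.19), and the groups overlapped.

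CFLAR encodes c-FLIP (ENSG00000003402, chromosome 2, 201116104 to 201176687, plus strand). Its scaled count was 63.3 and 67.4 CPM with DMSO and 70.4 and 74.0 CPM with MS1943. The groups did not overlap in CPM but did in TPM, at 40.6 and 38.6 with DMSO and 39.9 and 40.6 with MS1943. It was called higher by 1.10-fold (log2 fold change 0.14, SE 0.06, adjusted p = 0.037 in edgeR), and the call was lost in 8 of 12 alternatives. These included leaving out DMSO replicate 1 (adjusted p = 0.19), MS1943 replicate 1 (0.056) or MS1943 replicate 2 (0.27), and scaling by total reads (log2 fold change 0.03, adjusted p = 0.68).

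The coding forms of CFLAR were then taken apart. c-FLIP long resembles caspase-8 but lacks its protease activity, and c-FLIP short keeps the death effector domains alone. CFLAR-201 (480 residues) and CFLAR-203 (221 residues, the length of the product known as c-FLIP short) share 606 coding bases, after which the first goes on for 834 and the second for 57. The pair is shown because it is where long and short products part; capitals are the first bases of each alone, at chr2:201145378-201145407 and chr2:201141374-201141403 (hg38, plus strand).
CFLAR-201: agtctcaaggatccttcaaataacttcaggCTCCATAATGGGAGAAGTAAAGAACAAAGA
CFLAR-203: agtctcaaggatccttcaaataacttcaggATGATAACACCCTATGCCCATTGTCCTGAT
CFLAR-206 (250 residues) leaves the long form earlier, after 523 coding bases, and goes on for 227, with its own sequence from chr2:201136198-201136227. What those 227 bases encode was not examined. CFLAR-206 is shown as the only CFLAR transcript that passed the test.
CFLAR-206: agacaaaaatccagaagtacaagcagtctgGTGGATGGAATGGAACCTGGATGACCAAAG

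Short coding forms of CFLAR, complete coding sequences of at least 200 but under 300 residues, had 1178 and 1393 reads with DMSO and 1710 and 1286 with MS1943, which is 17.9, 18.6, 25.7 and 28.1 CPM. Both treated libraries were above both controls. Short forms rose by 0.56 on the log2 scale (SE 0.07, adjusted p = 1.2e-06 in edgeR, in a fit chosen after seeing the data), and this passed with scaling by total reads and without each library in turn (0.45 to 0.61). Long forms, of at least 450 residues, had 2707 and 3345 reads with DMSO and 2716 and 1932 with MS1943, which is 41.1, 44.6, 40.9 and 42.2 CPM. Their groups overlapped, and the difference did not pass (log2 fold change -0.05, SE 0.06, adjusted p = 0.54), except with scaling by total reads (-0.16, adjusted p = 0.047). The difference between the forms was itself not tested. The short group sums 4 transcripts and is not c-FLIP short alone. In the transcript fit CFLAR-206 went from 8.42 CPM with DMSO to 13.4 CPM with MS1943 on average. CFLAR-203, of the length of c-FLIP short, went from 9.78 to 11.7 CPM and did not pass (adjusted p = 0.20 in edgeR).

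As a share of the gene's reads, the short forms went from 27.9% ± 0.50 to 37.3% ± 0.99 and the long forms from 65.6% ± 0.85 to 57.5% ± 0.72 (SD, n = 2 each). Shares of reads weigh a transcript by its length, and CFLAR-201 is annotated with 14672 bases and CFLAR-203 with 1283. As a share of TPM, which removes length, the short forms went from 42.2% ± 2.55 to 52.0% ± 1.94, with an exact permutation p = 0.33 (two-sided, the smallest possible). Over all annotated transcripts the long forms were 22.6% and 22.5% of TPM on average, so the loss in their share of reads was not seen there. In the basic annotation set their share of TPM was lower with MS1943, so this depends on which other transcripts are counted. In TPM the remainder of the gene, in other transcripts, made up the difference.

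**Figure D2:**
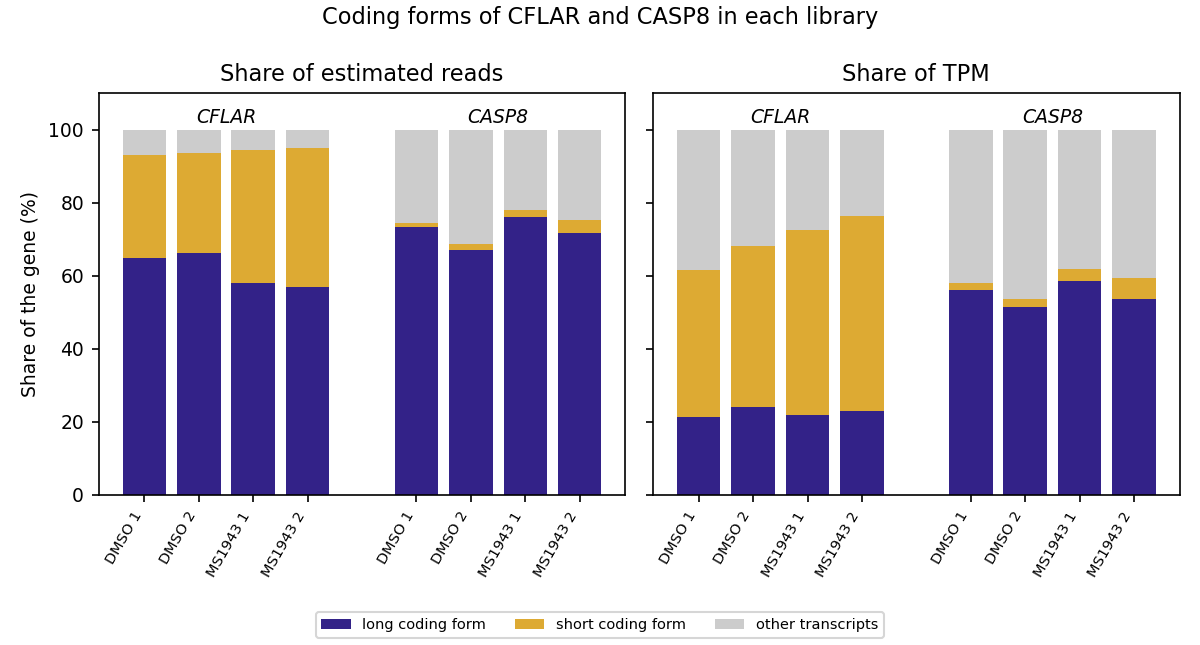
Share (%) of each gene's estimated reads (left) and TPM (right) in long coding, short coding and other transcripts of CFLAR and CASP8, as stacked bars for each of the 4 libraries. The short forms of CFLAR take a larger share in both MS1943 libraries on both scales, 37.3% of reads on average against 27.9% with DMSO.

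Among single CFLAR transcripts, CFLAR-206 had 514 and 645 reads with DMSO and 860 and 667 with MS1943 and rose by 0.67 on the log2 scale (SE 0.12, adjusted p = 0.039 in edgeR). It did not pass without any 1 of the 4 libraries (adjusted p of 0.11 to 0.17) or with scaling by total reads (0.051). CFLAR-203 had 635, 704, 774 and 564 reads (log2 fold change 0.26, SE 0.11, adjusted p = 0.20). CFLAR-201 had 2237, 2806, 2155 and 1506 reads (-0.20, SE 0.08, adjusted p = 0.18), and CFLAR-208, which also encodes 480 residues, 417, 465, 511 and 401 reads (0.32, SE 0.14, adjusted p = 0.22). None of these passed, and Salmon's sharing of reads between such overlapping transcripts carries an error that the files do not hold.

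The ratio of CASP8 to CFLAR, each in TPM, was 0.716 and 0.750 with DMSO and 0.734 and 0.871 with MS1943. The groups overlapped (exact permutation p = 0.667, two-sided, n = 2 per group), and CFLAR was the more abundant in every library.

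CFLAR and CASP8 lie close together on chromosome 2, with CASP10 between them, from 201116104 to 201287711. CASP10 itself did not pass (log2 fold change -0.12, SE 0.07, adjusted p = 0.14 in edgeR). Of 6 tested protein-coding neighbours within 200 kb, 0 were higher and 3 were lower, beside 30.0% higher and 29.4% lower over all tested genes. The lower ones were STRADB, which fell by 1.22 on the log2 scale, NDUFB3, which fell by 0.61, and FAM126B, which fell by 0.22.

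RIPK1 (ENSG00000137275, chromosome 6, 3063991 to 3115187, plus strand) had 35.8 and 37.2 CPM with DMSO and 51.8 and 51.9 CPM with MS1943. The treated libraries were almost equal and above both controls. RIPK1 rose 1.42-fold (log2 fold change 0.51, SE 0.06, adjusted p = 3.3e-07 in edgeR) and passed in each of the 12 alternatives. Of its transcripts RIPK1-201 rose, with 1267 and 1737 reads with DMSO and 2402 and 1938 with MS1943 (log2 fold change 0.82, SE 0.13, adjusted p = 0.029). RIPK1-202, which encodes a product of the same 671 residues, had 972 and 893 reads with DMSO and 852 and 321 with MS1943 (-0.50, SE 0.33, adjusted p = 0.40). The test of RIPK1-202 against the other RIPK1 transcripts did not pass (adjusted p = 0.25, diffSpliceDGE in edgeR).

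In all, 49 of the 88 transcripts of the 10 genes passed the filter, and 5 were higher and 2 lower, where 12.4% of the 74941 tested transcripts were called. The higher ones were TNFRSF10A-201, TNFRSF10B-201, FADD-201, RIPK1-201 and CFLAR-206, and the lower ones TNFSF10-201 and CASP8-201. Without DMSO replicate 1, MS1943 replicate 1 or MS1943 replicate 2 a single transcript was called, and without DMSO replicate 2 there were 4.

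**Figure D3:**
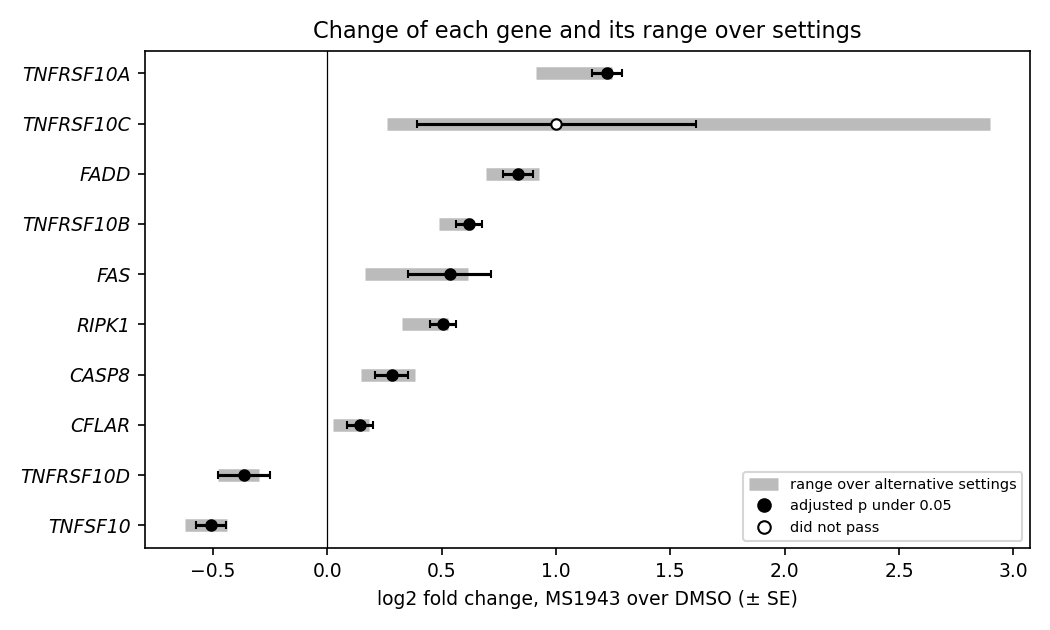
Log2 fold change (MS1943 over DMSO) of the 10 genes as points with bars of 1 SE, and grey bars for the range over the alternative analyses; filled points passed at an adjusted p under 0.05. TNFRSF10A has the largest called change at 1.22, CFLAR the smallest at 0.14, and the grey bar of TNFRSF10C reaches from 0.26 to 2.90.

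On the TPM scale the order of the levels shifted at the top. With DMSO it was TNFSF10 (54.2), CFLAR (39.6), FADD (39.3), CASP8 (29), TNFRSF10B (19.1), RIPK1 (15.1), TNFRSF10A (11.8), TNFRSF10D (2.70), FAS (1.32) and TNFRSF10C (0.139). CFLAR and FADD were not separated by their libraries there. With MS1943 it was FADD (63.9), CFLAR (40.2), TNFSF10 (37.0), CASP8 (32.3), TNFRSF10B (27.3), TNFRSF10A (23.3), RIPK1 (19.1), TNFRSF10D (1.92), FAS (1.61) and TNFRSF10C (0.303), and TNFRSF10D and FAS overlapped. TNFSF10 went from the first place to the third, and TNFRSF10A passed RIPK1.

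Genes with the most similar pattern were sought among 11137 protein-coding genes, by the distance of log2 CPM centred on the DMSO mean over the 4 libraries. Nearest to TNFRSF10A were RHBDD3, HGS and NPLOC4 (distances of 0.021, 0.028 and 0.032), with log2 fold changes of 1.21, 1.23 and 1.22. Nearest to TNFRSF10B were GTF2F1, ZNF558 and WDR45 (0.013, 0.015 and 0.016), and nearest to TNFSF10 were CPOX, NDUFB6 and PDE9A (0.018, 0.020 and 0.021). ATF5, EIF3F and ZBTB7A were nearest to CFLAR (0.016, 0.020 and 0.024). These are descriptions over 4 libraries and carry no test.

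The remaining genes of the pathway were taken from lists by role. Over all tested genes 30.0% were higher and 29.4% lower, and the counts of each list below stand beside these shares. A count near them does not set a list apart. Of 13 other TNF family ligands 9 were tested, of which 2 were higher and 4 lower (median log2 fold change -0.89). That median is the value of TNFSF13B, which had 33 and 19 reads with DMSO and 9 and 13 with MS1943. Its difference did not pass (adjusted p = 0.12 in edgeR). TNFSF9, the ligand of 4-1BB, rose by 2.81 (SE 0.07, adjusted p = 2.8e-16 in edgeR), from 7.38 ± 0.11 to 51.7 ± 3.68 CPM (SD, n = 2), and CD70, the ligand of CD27, rose by 1.54. TNFSF15 fell by 1.74 and TNF fell by 1.26, the latter from 1.13 ± 0.14 to 0.474 ± 0.010 CPM. TRAIL thus belonged to the ligands that were lower, among ligands that moved in both directions.

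Of 7 other death and decoy receptors 6 were tested, with 3 higher and 2 lower (median 0.29). TNFRSF1A, the TNF receptor with a death domain, rose by 0.60 and TNFRSF21 (DR6) by 0.53 on the log2 scale, both abundant at 55.4 and 90.7 CPM with DMSO. EDAR fell by 2.75 and NGFR fell by 2.07, from 1.04 and 0.482 CPM. TNFRSF11B, the soluble TRAIL-binding protein osteoprotegerin, also rose, by 1.0 (adjusted p = 0.0082 in edgeR). It rests on few reads, 25 and 31 with DMSO and 56 and 34 with MS1943.

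Of the 4 other genes with a death effector domain, 2 were higher and 1 lower (median 0.49). DEDD2 rose from 41.5 ± 2.05 to 132 ± 0.50 CPM (log2 fold change 1.67, SE 0.06, adjusted p = 1.1e-14 in edgeR). PEA15, a cytoplasmic protein that binds FADD and caspase-8, rose from 94.6 ± 0.03 to 204 ± 1.35 CPM (1.11, SE 0.05, adjusted p = 1.6e-12). DEDD fell by 0.20, a call lost with offsets for transcript length (adjusted p = 0.054). Without DMSO replicate 2 the count of lower genes in this list was 2.

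Of 16 ubiquitin ligases, deubiquitinases and adaptors of the receptor complexes, 11 were higher and 4 lower (median 0.26). RBCK1 (HOIL-1, of the linear ubiquitin ligase) rose by 0.88, BIRC2 (cIAP1) by 0.54 and the deubiquitinase CYLD by 0.37 on the log2 scale. BIRC3 (cIAP2) fell by 0.66, from 43.7 ± 3.02 to 27.5 ± 2.32 CPM, opposite to its close relative BIRC2.

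The 12 downstream caspases and mitochondrial genes had 1 higher and 5 lower (median -0.12). APAF1, the apoptosome scaffold, fell by 0.95 (SE 0.06, adjusted p = 1.8e-10 in edgeR). BAX fell by 0.26, while BAK1, of the same pore-forming family, rose by 0.45. Without MS1943 replicate 1 the count of lower genes was 3, and without DMSO replicate 1 or MS1943 replicate 2 the count of higher genes was 2.

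Of 3 necroptosis genes 2 were tested. MLKL, the pore-forming effector, rose by 0.52 (SE 0.07, adjusted p = 2.5e-06 in edgeR), from 19.5 ± 1.25 to 27.9 ± 0.64 CPM. RIPK3, the kinase that activates MLKL, had 3 and 5 reads with DMSO and 6 and 1 with MS1943, too few to test.

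Of 12 transcription factors with reported roles at these genes, 6 were higher and 4 lower (median 0.19). DDIT3 (CHOP), known as an activator of TNFRSF10B under stress, rose by 3.17 (SE 0.07, adjusted p = 3.6e-17 in edgeR), from 5.58 ± 0.10 to 50.4 ± 0.50 CPM. ATF3 rose by 2.50 and JUN by 2.29 on the log2 scale. The interferon factor IRF1 was lower (46.2 ± 0.49 to 35.1 ± 0.96 CPM), given here outside the rule for named genes.

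All 4 listed genes of receptor O-glycosylation, a modification known to aid clustering of TRAIL receptors, were higher (median 1.32). FUT6 rose by 1.90 and GALNT14 by 1.63 from low levels, 1.24 and 3.44 CPM with DMSO. FUT3 rose by 1.02 and GALNT3 by 0.65. The lists were chosen with results of these data known, and no set test was made on them.

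**Figure D4:**
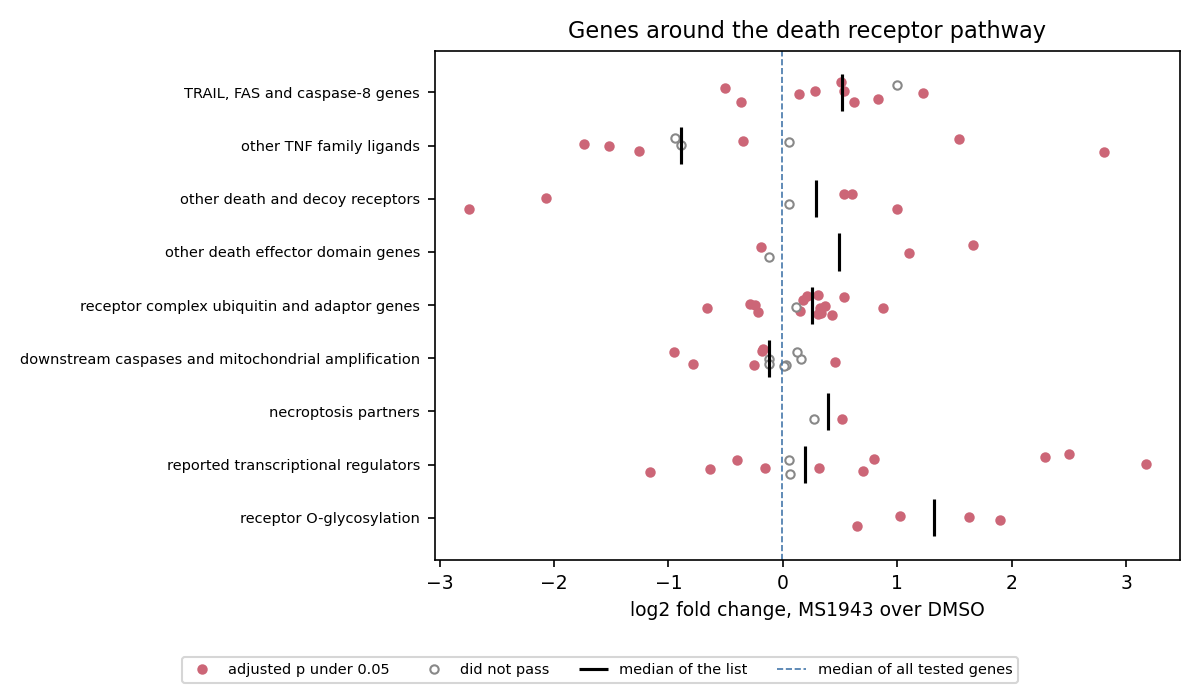
Log2 fold change (MS1943 over DMSO) of each tested gene in the 10-gene set and in 8 lists around it; filled points passed at an adjusted p under 0.05, black bars are list medians, and the dashed line is the median of all tested genes (-0.01). The O-glycosylation list lies wholly to the right with a median of 1.32. The other TNF family ligands spread to both sides with a median of -0.89, the value of TNFSF13B, a gene with few reads.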

How the data were processed

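The authors quantified transcripts with Salmon 0.9.1 and also list DESeq2, R 3.4.3 and the hg38 build, per the submitters' processing notes. Which annotation release and which options were used is not given in the sources used here. Deposited values are its estimated counts per transcript, which need not be whole, and TPM, per the file headers, with each transcript's length and effective length. Here 193505 of 197653 transcripts matched GENCODE 29 by identifier without version. The 4148 others held 0.482% to 0.496% of reads and were left out. Estimated counts were summed per gene (56865 genes) and rounded, also per transcript.

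Groups came from the treatment label. Tests used the quasi-likelihood method of edgeR 4.0.16 in R 4.3.3 with TMM scaling, filterByExpr and treatment alone, with Benjamini-Hochberg adjustment over 19358 genes or 74941 transcripts and a threshold of 0.05; diffSpliceDGE compared transcripts within genes. The SE is the size of the log2 fold change divided by the square root of F. The common biological coefficient of variation was 0.0478. Floors of 3 reads cover counting error only. The procedure was tested on simulated data. For genes it recovered 69 of 100 changed 1.5-fold and 83 of 100 changed 2-fold. For transcripts it recovered 19 and 58 of 100, and in the test within genes 7 and 36 of 100. A transcript that did not pass may therefore still differ. The simulation changed 100 genes or transcripts at each fold, with a fixed spread for all genes and another for all transcripts. In the data 59.3% of genes were called, so these rates may not carry over.

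Members and lists were chosen with earlier results of these data known. Named were the 10 genes, their transcripts with at least 10% of reads in a library, up to 4 passing genes per list by adjusted p, and the 3 nearest genes in pattern for 4 members; cluster neighbours, TNFRSF11B, CASP10, RIPK3, IRF1, CASP8-201 and cell type markers stand outside that rule, and a few genes of the lists are not reported here. DIABLO matched 2 identifiers and the protein-coding entry ENSG00000184047 was used. Alternatives were DESeq2 1.42.0, RLE factors, total-read scaling, no filter, length offsets, protein-coding transcripts only, limma 3.58.1 on log2(TPM + 1) (genes with at least 0.5 TPM in 2 libraries) and leaving out each library. The lone library of a group was then assumed to vary like the other group.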

Additional observations from a re-analysis of the deposited data

How the results depend on the processing

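TNFRSF10A, TNFRSF10B, TNFSF10, FADD and RIPK1 kept their direction and call in all 12 alternatives each. No result changed sign and stayed called. Of the 10 genes, 4 instead of 7 were higher with total-read scaling and with limma on TPM, and 1 instead of 2 was lower with DESeq2 and with limma; leaving out 1 library gave 1 to 2 lower. Over all genes, limma called 3530 higher where edgeR called 5799. For the lists, limma called 0 other death and decoy receptors lower (some were not tested) and 6 ubiquitin and adaptor genes higher. Among other death effector domain genes, 2 were lower with total-read scaling, 0 with length offsets and 1 to 2 without 1 library. Among downstream caspases and mitochondrial genes, 2 were higher with protein-coding transcripts only, and without 1 library 1 to 2 were higher and 3 to 5 lower. Leaving out 1 library gave 1 to 4 called transcripts and 1 to 2 called in the test within genes. The short form share of CFLAR differed by 9.77 percentage points of TPM, or 6.83 in the basic annotation set; its long form share differed by -0.19 points, or -8.04 as a share of reads and -3.38 in the basic set. The causes were not tested. Summing overlapping non-coding genes, fitting coding forms and the handling of incomplete coding sequences were added after seeing the data. No paired analysis was possible because the labels carry no replicate numbers; those used here follow accession order and only name the samples. TNFRSF10C, FAS and the short form of CASP8 rest on few reads, and 2 libraries per group limit every exact test to p = 0.33.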
